A study of Mus musculus with 8 samples.

Results

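The genes described here are *Ctnnb1*, which encodes β-catenin, and 7 genes of the canonical Wnt pathway that are used as its targets or modulators: *Axin2*, *Lef1*, *Tcf7*, *Nkd1*, *Apcdd1*, *Sfrp1* and *Sfrp2*. They were picked by symbol, and all 8 are among the 19465 genes that the probe set counts in each of the 8 Visium sections of embryonic mouse diaphragm. At E14.5 there were 3 control sections and 1 CaV1.1 KO section (CaV1.1 -/-, dysgenic, without the voltage-gated calcium channel of skeletal muscle). At E18.5 there were 2 control sections, 1 section of the CaV1.1 KO and 1 of the β-cat cKO, whose floxed β-catenin alleles were deleted by Cre under the human skeletal actin promoter, that is, in muscle fibers and not in the connective tissue, nerve or vessels around them. Controls carried at least 1 working allele of either gene and could therefore be heterozygous, CaV1.1 KO embryos came in part from crosses with the floxed allele and the Cre, and the β-cat cKO cross also carried the CaV1.1 null allele. Each mutant group is 1 section. The study's text speaks of separate control diaphragms at each stage but gives no litters, and p-values here measure the spread between these sections.

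When a Wnt ligand binds Frizzled and Lrp5/6 receptors, β-catenin is no longer degraded by the complex of Axin, Apc and Gsk3, enters the nucleus and turns on genes with the factors of the Tcf/Lef family. *Axin2* and *Nkd1* are induced by this signal in many tissues and act back on it as inhibitors, *Apcdd1* encodes a membrane inhibitor, and *Sfrp1* and *Sfrp2* encode secreted proteins that bind Wnt ligands outside the cell. β-catenin also links cadherins to the actin cytoskeleton, and in skeletal muscle it takes part in myogenesis and in the formation of neuromuscular junctions.

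Muscle spots, those above Otsu's threshold for 9 muscle genes, numbered from 491 to 3092 per section, and other spots, from 102 to 580, can hold connective tissue, tendon, vessels, mesothelium and remnants of neighboring organs. Sections held from 14179161 to 82859104 UMIs, with a median of 15434 to 45284 per spot. *Ttn* stood at 2243 to 8007 raw CPM (counts scaled to the total UMIs of the spots concerned) in muscle spots and at 499 to 3182 in other spots. As *Ttn* is 1 of the 9 genes, its higher level in muscle spots follows from the selection and is no check of it. Its UMIs in other spots show that these also held muscle RNA in every section. The sections share 150 to 2153 spot barcodes between pairs, as spots of Visium slides carry a fixed set of barcodes. Summed hepatocyte markers reached 11518 raw CPM in the other spots of the CaV1.1 KO at E18.5 and 0.145 in those of E18.5 control 2, and summed adrenal cortex markers reached 1636 in E14.5 control 1 against at most 8.36 in the other spots of the other sections. The part of these organs in the values of other spots was not tested. UMIs of *Cacna1s*, the gene of CaV1.1, were counted in muscle spots of both CaV1.1 KO sections (16.2 raw CPM against 18.3 to 22.8 in controls at E14.5, and 31.4 against 61.2 and 63.9 at E18.5). Where the probes of *Cacna1s* and *Ctnnb1* lie relative to the mutant alleles is not given in the sources used here, so neither gene's UMIs check a genotype.

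Levels of whole muscle and other spots are given as TMM-scaled CPM, which set the sums of all 8 sections on 1 scale, and fold changes are log2 values of edgeR's quasi-likelihood fits of sums per section. A gene is called where its Benjamini-Hochberg adjusted p over all genes tested is below 0.05. The 9 muscle genes alone made up 128417 and 131917 raw CPM in E18.5 control muscle, 105199 in β-cat cKO, 71384 in the CaV1.1 KO at E18.5 and 16235 to 27362 at E14.5. Fitted on raw totals in place of TMM, the median of all genes moved by -0.72 on the log2 scale for E18.5 minus E14.5 muscle, by 0.54 for the CaV1.1 KO at E18.5, by 0.22 for β-cat cKO and by -0.70 for muscle minus other spots at E18.5, whereas DESeq2's size factors moved it by at most 0.04 in any comparison.

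Between E14.5 and E18.5, *Axin2* and *Tcf7* rose and *Nkd1* and *Sfrp2* fell in control muscle. These are 4 of the 8 genes, in a comparison in which 65.6% of all genes tested were called, 33.2% higher and 32.3% lower. In the CaV1.1 KO 1 of 8, *Sfrp1*, was higher at E14.5, where 2.08% of all genes were called, 0.533% higher and 1.54% lower. At E18.5 *Nkd1* and *Sfrp1* were higher and *Ctnnb1* was lower, with 25.7% of all genes called, 10.6% higher and 15.2% lower. In β-cat cKO muscle *Axin2* and *Lef1* were lower, with 8.80% of all genes called, 3.18% higher and 5.62% lower, and *Ctnnb1* itself was not called. On raw totals the counts higher and lower were 2 and 4 in place of 2 and 2 for the stages, 4 and 0 in place of 2 and 1 for the CaV1.1 KO at E18.5, and 1 and 2 in place of 0 and 2 for β-cat cKO. Of the 14832 genes tested, raw totals called 2259 higher and 9033 lower for the stages. They called 7245 and 752 for the CaV1.1 KO at E18.5, and 2258 and 568 for β-cat cKO. Both mutants of E18.5 were compared with the same control sections.

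**Figure D1:**
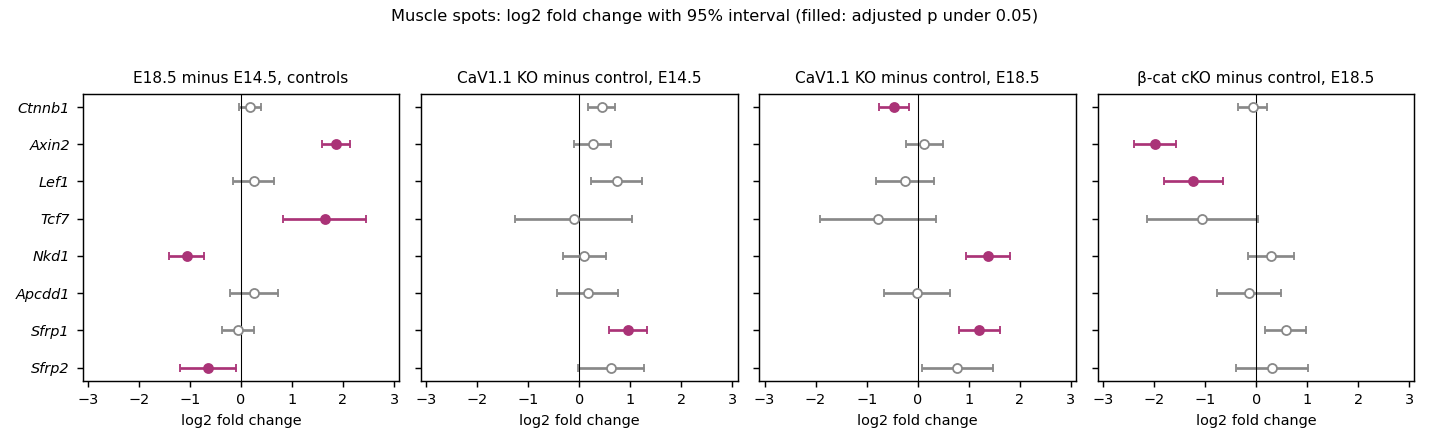
Log2 fold change of the 8 genes in muscle spots (x axis) with its 95% interval from edgeR, 1 panel per comparison, filled where the adjusted p is below 0.05. *Axin2* stands at 1.86 for E18.5 minus E14.5 and at -1.99 for β-cat cKO minus control, and *Nkd1* and *Sfrp1* at 1.38 and 1.21 for the CaV1.1 KO at E18.5.

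*Ctnnb1* (chromosome 9:120933400-120960507, GRCm38) was not called in β-cat cKO muscle, and was called lower in the CaV1.1 KO at E18.5. In muscle it stood at 108, 106 and 91.9 scaled CPM in E14.5 controls 1, 2 and 3 (101.7 ± 8.58, SD, n = 3), at 121 and 114 in E18.5 controls 1 and 2 (117 ± 4.49, SD, n = 2), at 139 and 80.4 in the CaV1.1 KO at E14.5 and E18.5, and at 110.2 in β-cat cKO. The β-cat cKO section was just below both E18.5 controls, with a log2 fold change of -0.07 (SE 0.12, 95% interval -0.36 to 0.22, edgeR adjusted p = 0.77). These spots also hold cells without Cre. In bulk sums of spots, fewer cells of a type and less RNA per cell cannot be told apart. In the other spots *Ctnnb1* of β-cat cKO was 136 scaled CPM, between 123 and 145 in the controls.

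The CaV1.1 KO lay above all controls at E14.5 and below both at E18.5 for *Ctnnb1*. Its log2 fold change was 0.44 at E14.5 (SE 0.11, edgeR adjusted p = 0.11) and -0.47 at E18.5 (SE 0.13, edgeR adjusted p = 0.033), and the change between the stages was itself called (-0.91, SE 0.17, edgeR adjusted p = 0.032), as 2 of the 8 genes were in a test that called 6.40% of all genes, 2.22% higher and 4.18% lower. 1 of them was upward and 1 downward, against 1 and 0 on raw totals. Raw totals called 4407 of all 14832 genes upward and 248 downward in this test. On raw totals the E18.5 value turned to 0.07 (edgeR adjusted p = 0.60) and the difference between stages was -0.38 (adjusted p = 0.085). The E18.5 call was also lost without E14.5 control 2 (edgeR adjusted p = 0.055), without E18.5 control 1 (adjusted p = 0.083) and with E18.5 sections only (adjusted p = 0.055), and that of the difference without E14.5 control 2 or 3 (adjusted p = 0.064 and 0.077). Between stages *Ctnnb1* in controls changed by 0.18 (SE 0.09, edgeR adjusted p = 0.12), a value that turned to -0.54 on raw totals (adjusted p = 4.0e-04). *Jup*, the close relative of β-catenin that can take its place in cell junctions, was 206 and 256 scaled CPM in E18.5 control muscle and 185 in β-cat cKO (log2 -0.30, SE 0.15, edgeR adjusted p = 0.27), and in the other spots 177 and 191 against 400.0 (log2 1.103, SE 0.20, edgeR adjusted p = 0.076).

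**Figure D2:**
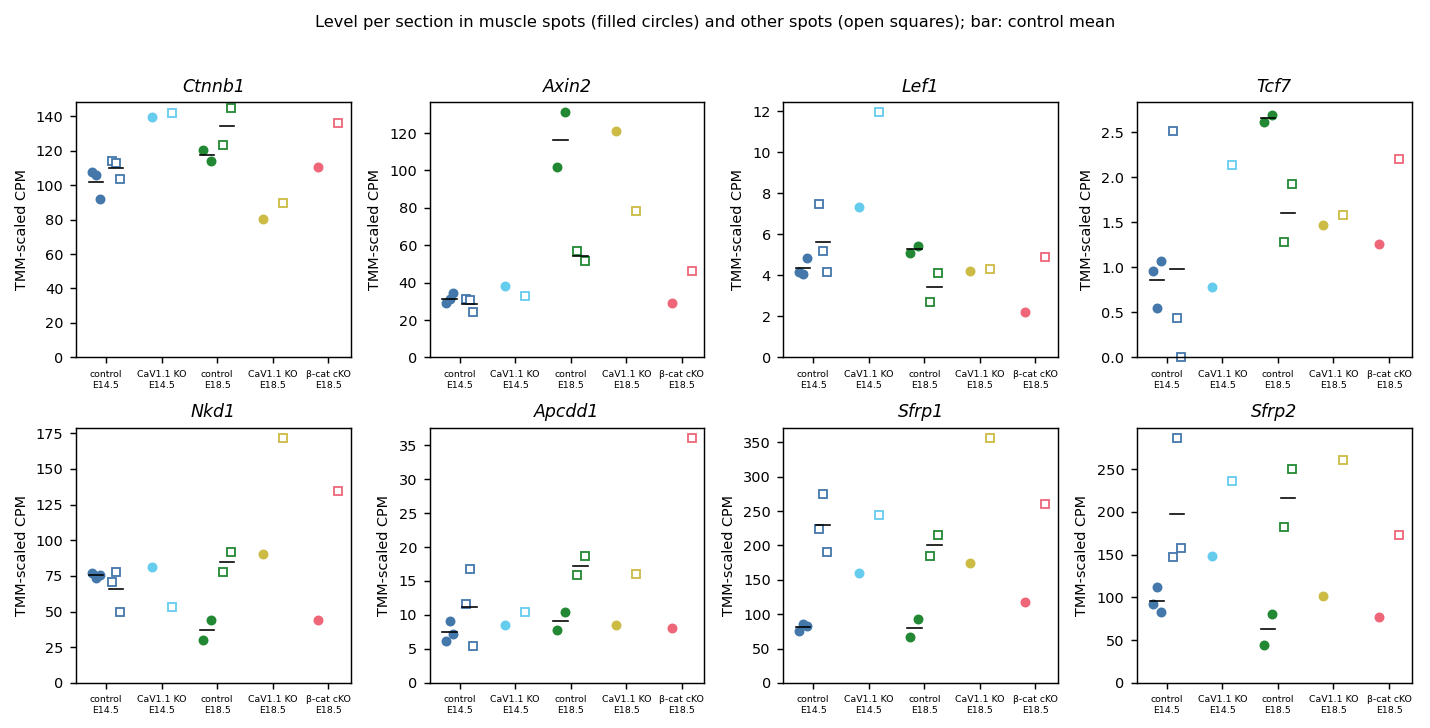
TMM-scaled CPM (y axis, from 0) of each gene in the muscle spots (filled circles) and other spots (open squares) of each section, by group, with bars at the control means. *Axin2* in muscle runs from 29.1 to 34.3 in the E14.5 controls, is 102 and 131 in the E18.5 controls and 121 in the CaV1.1 KO, and is 28.9 in β-cat cKO.

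*Axin2* (chromosome 11:108917828-108950783), the scaffold of the destruction complex that Wnt signaling induces, had the largest log2 changes of the 8 genes in muscle, of the TMM-scaled fit, both with stage in controls and in β-cat cKO. In control muscle it was 29.1, 31.1 and 34.3 scaled CPM at E14.5 (31.5 ± 2.62, SD, n = 3) and 102 and 131 at E18.5 (116 ± 20.7, SD, n = 2). Every E18.5 control was thus above every E14.5 control, with a 3.63-fold rise (log2 1.86, SE 0.12, edgeR adjusted p = 8.6e-06). In β-cat cKO muscle *Axin2* was 28.9 scaled CPM, below all 5 controls of both stages and 3.96-fold lower than in E18.5 controls (log2 -1.99, SE 0.18, edgeR adjusted p = 0.0019). Over the alternatives of scaling, tool, filter, spots and left-out sections this value stayed between -2.15 and -1.77 and was called in each. The CaV1.1 KO at E18.5 held 121 scaled CPM, between its controls (log2 0.13, SE 0.16, 95% interval -0.24 to 0.50, edgeR adjusted p = 0.58), though on raw totals, with 116 raw CPM against 64.1 and 81.8, it was higher (log2 0.67, adjusted p = 0.015). At E14.5 the CaV1.1 KO was 38.1 against at most 34.3 in controls (log2 0.26, SE 0.16, edgeR adjusted p = 0.47).

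Outside muscle *Axin2* was lower in β-cat cKO without being called. Its other spots held 46.2 scaled CPM against 56.9 and 51.6 in E18.5 controls (log2 -0.25, SE 0.18, 95% interval -0.69 to 0.20, edgeR adjusted p = 0.58), and none of the 8 genes was called there by edgeR, in a comparison with 1.22% of all genes called, 1.1% higher and 0.122% lower. 1 of the 8, *Nkd1*, was below an unadjusted p of 0.05, for which no share of all genes is given. DESeq2 called 0 of 8, where it called 580 of the 14799 genes tested. Fitted together, muscle minus other spots was 1.77 lower on the log2 scale in β-cat cKO than in the controls for *Axin2* (log2 -1.77, SE 0.26, edgeR adjusted p = 0.042), the only call among the 8 genes where 0.769% of all genes were called, 0.129% higher and 0.639% lower. This call was lost without E14.5 control 2 (edgeR adjusted p = 0.084) or 3 (adjusted p = 0.066) and with spots over 150 µm from the other kind (log2 -1.81, adjusted p = 0.077). The 5 fibroblast markers, all with UMIs in every section, summed to 7654 raw CPM in β-cat cKO muscle against 4942 and 6962 in E18.5 controls. The TMM factors of this muscle were 0.739 in β-cat cKO against 0.630 and 0.624 in the controls. Divided by them, the cKO sum lies between its controls. The 5 smooth muscle markers summed to 2651 raw CPM in other spots of the cKO against 707 and 1062, whereas cartilage markers summed to 110.4 against 1109 and 1335, tendon markers to 1364 against 3082 and 3553 and fibroblast markers to 22050 against 30211 and 36949. Skeletal muscle markers in these other spots summed to 15871.5 raw CPM in the cKO against 47828 and 31869 in the controls. The part of these tissues in the values was not tested.

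**Figure D3:**
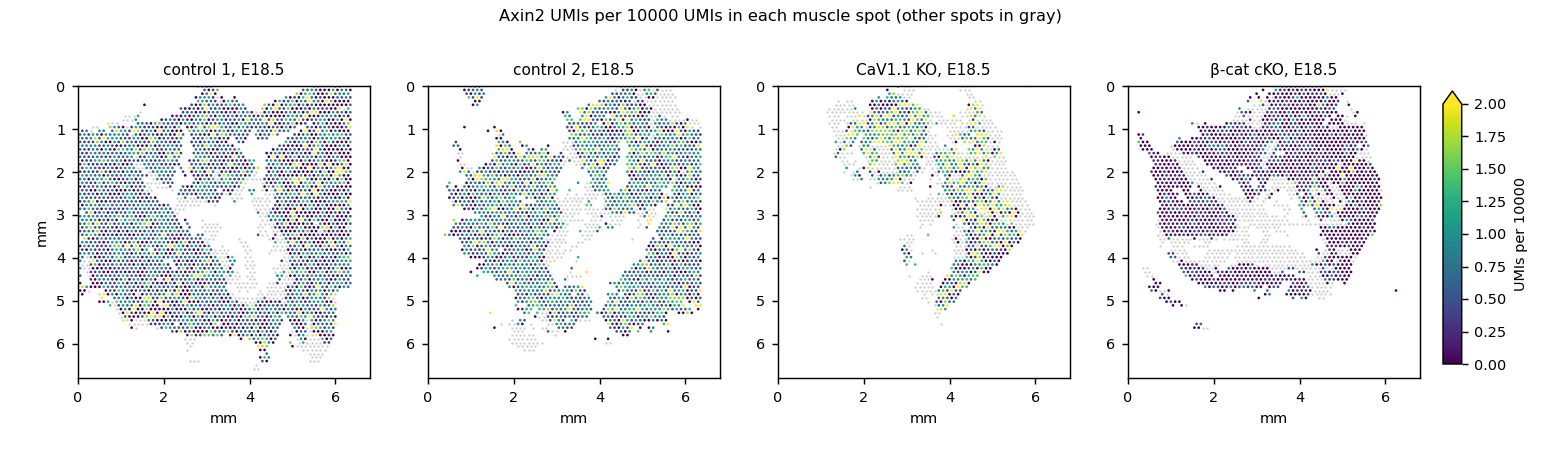
Maps of the 4 E18.5 sections, in mm on both axes, with *Axin2* UMIs per 10000 UMIs in each muscle spot as color (capped at 2) and other spots in gray. In raw CPM the muscle of controls 1 and 2 holds 64.1 and 81.8, that of the CaV1.1 KO 116 and that of β-cat cKO 21.4. Raw CPM of these sections are not on 1 scale. In TMM-scaled CPM the CaV1.1 KO, at 121, lies between the controls at 102 and 131, and β-cat cKO is 28.9.

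Muscle and other spots of controls parted in *Axin2* between the stages. At E14.5 other spots held 31.0, 30.9 and 24.4 scaled CPM, against 29.1, 31.1 and 34.3 in muscle (log2 muscle minus other 0.07, SE 0.14, edgeR adjusted p = 0.73). At E18.5 they held 56.9 and 51.6, below both muscle values, and muscle was 2.13-fold higher (log2 1.09, SE 0.15, edgeR adjusted p = 7.6e-04). *Axin2* thus rose in other spots as well, by 0.93 (SE 0.14, edgeR adjusted p = 0.0061), the only call among the 8 genes where 30.6% of all genes were called, 16.6% higher and 14% lower. Skeletal muscle markers of these other spots summed to 5636 to 8681 raw CPM at E14.5 and to 47828 and 31869 at E18.5. The part of muscle RNA in this rise was not tested. The stage difference of muscle minus other was called (log2 1.02, SE 0.20, edgeR adjusted p = 0.015) but not on raw totals (log2 0.53, adjusted p = 0.063) or without E14.5 control 2 (log2 0.97, adjusted p = 0.060).

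Among the nuclear partners of β-catenin, *Lef1* (chromosome 3:131110297-131224357) and *Tcf7* (chromosome 11:52246527-52283383) were sparse, with 66 to 243 and 15 to 125 UMIs per section in all muscle spots. *Lef1* stood at 4.16, 4.07 and 4.86 scaled CPM in E14.5 control muscle, at 5.09 and 5.45 at E18.5, at 7.32 and 4.22 in the CaV1.1 KO at E14.5 and E18.5, and at 2.21 in β-cat cKO. The β-cat cKO section, with 79 UMIs, was the lowest of the 8 and 2.34-fold below its controls (log2 -1.23, SE 0.25, edgeR adjusted p = 0.026), a call lost without E14.5 control 3 (adjusted p = 0.051), without E18.5 control 2 (adjusted p = 0.060) and with E18.5 sections only (adjusted p = 0.063). In its other spots *Lef1* was 4.90 against 2.71 and 4.13, and the difference of muscle minus other from that in controls was -1.78 (SE 0.51, edgeR adjusted p = 0.18). In the CaV1.1 KO at E14.5 *Lef1* was above all 3 controls (log2 0.73, SE 0.21, edgeR adjusted p = 0.15).

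*Tcf7* was 0.96, 0.54 and 1.07 scaled CPM in E14.5 control muscle and 2.62 and 2.70 at E18.5, so the stages did not overlap (log2 1.64, SE 0.35, edgeR adjusted p = 0.0038). β-cat cKO muscle held 1.26 and the CaV1.1 KO 1.47 at E18.5, both below the controls (log2 -1.05, SE 0.47, edgeR adjusted p = 0.21, and log2 -0.78, SE 0.49, edgeR adjusted p = 0.27). These values rest on 45 and 23 UMIs. In the other spots *Tcf7* had 0 to 36 UMIs per section. The 0 UMIs of E14.5 control 3 among 1335256 UMIs do not show that *Tcf7* was absent there.

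As *Axin2* and *Lef1* were the members called in β-cat cKO muscle, a RefSeq promoter window of each is shown (250 bases before to 50 after an annotated start, plus strand, GRCm38.p6), the Lef1 window being the only one of its 4 in which a Tcf/Lef motif was found. Searched on both strands were CTTTGAA as well as CTTTGAT, and CTTTGTA as well as CTTTGTT, and a match is in capitals.
Axin2, chr11:108920099-108920398: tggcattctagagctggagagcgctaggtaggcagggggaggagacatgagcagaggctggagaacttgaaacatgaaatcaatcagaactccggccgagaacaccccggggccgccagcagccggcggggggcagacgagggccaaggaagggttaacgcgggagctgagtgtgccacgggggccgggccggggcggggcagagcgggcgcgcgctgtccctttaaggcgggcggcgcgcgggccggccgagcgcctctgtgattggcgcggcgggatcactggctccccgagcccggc
Lef1, chr3:131156044-131156343: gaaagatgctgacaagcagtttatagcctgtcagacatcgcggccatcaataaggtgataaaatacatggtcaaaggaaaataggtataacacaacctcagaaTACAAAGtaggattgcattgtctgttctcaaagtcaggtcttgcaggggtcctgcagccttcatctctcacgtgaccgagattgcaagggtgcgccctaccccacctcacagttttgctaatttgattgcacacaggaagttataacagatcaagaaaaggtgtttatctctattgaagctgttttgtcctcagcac
The window of *Axin2*, at a start inside the gene, holds no match, and the sequence before the gene's first base was not searched. The match in *Lef1* is TACAAAG, the reverse complement of CTTTGTA, at position -147 from a start inside the gene. None of the windows of *Ctnnb1*, *Tcf7*, *Nkd1* or *Sfrp2* holds a match, and 16.9% of all 32851 windows do. Those of *Tcf7*, *Nkd1* and *Sfrp2* are likewise at starts inside the gene. Of the 8 genes, 6 have a window in the table used here. A match describes letters and is not a binding site, and elements outside these windows were not searched.

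*Nkd1* (chromosome 8:88521342-88594887), a Wnt-induced gene whose product binds Dishevelled, went the opposite way to *Axin2* with stage. In control muscle it was 76.7, 73.4 and 75.8 scaled CPM at E14.5 (75.3 ± 1.72, SD, n = 3) and 29.8 and 43.7 at E18.5 (36.8 ± 9.85, SD, n = 2), a 2.09-fold fall without overlap (log2 -1.06, SE 0.15, edgeR adjusted p = 4.4e-04). In the CaV1.1 KO it was 81.3 at E14.5 and still 90.4 at E18.5, above every E14.5 control. The latter is 2.60-fold above the E18.5 controls (log2 1.38, SE 0.19, edgeR adjusted p = 0.0033). Over all settings, core muscle among them, this log2 value stayed between 1.05 and 1.92. Core muscle spots are those away from other spots. They were 501 of 813 in this KO, against 2779 of 3092 and 1997 of 2199 in E18.5 controls. In the deepest muscle *Nkd1* of the KO was above both controls but close to control 2 on the TMM scale, as given below. The part of the muscle edge in the E18.5 value was not tested. The effect of the KO at E18.5 minus that at E14.5 was 1.28 (SE 0.27, edgeR adjusted p = 0.038), not called in core muscle spots (log2 0.92, adjusted p = 0.081) or without E14.5 control 2 or 3 (adjusted p = 0.068 and 0.10). β-cat cKO muscle held 44.3 scaled CPM of *Nkd1*, close to the higher control (log2 0.29, SE 0.19, 95% interval -0.15 to 0.74, edgeR adjusted p = 0.39), but was called without E18.5 control 2 (log2 0.58, adjusted p = 0.040).

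In the other spots *Nkd1* was not called with stage, and at E18.5 it stood above muscle. It was 70.7, 78.0 and 49.5 scaled CPM at E14.5 and 77.9 and 91.9 at E18.5 (log2 0.38, SE 0.19, edgeR adjusted p = 0.19). Muscle minus other was 0.16 at E14.5 (SE 0.13, edgeR adjusted p = 0.37) and -1.23 at E18.5 (SE 0.15, edgeR adjusted p = 4.0e-04), and this shift was called (log2 -1.38, SE 0.19, edgeR adjusted p = 0.0047), as it was for 3 of the 8 genes where 18.6% of all genes were called, 12.3% higher and 6.36% lower. At E18.5 other spots of the CaV1.1 KO and of the β-cat cKO held 172 and 134 scaled CPM, both above the controls, at edgeR adjusted p = 0.22 and 0.33. DESeq2 called the former (log2 1.02, adjusted p = 0.019).

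*Apcdd1*, which encodes an inhibitor at the cell membrane, was low in muscle and higher around it. Muscle held 6.17, 9.06 and 7.14 scaled CPM in E14.5 controls, 7.75 and 10.5 in E18.5 controls, 8.52 and 8.5 in the CaV1.1 KO at E14.5 and E18.5 and 8.10 in β-cat cKO, so every mutant section lay within the range of the 5 controls, and no comparison of stage or genotype called it. Other spots held 11.6, 16.7 and 5.37 at E14.5 and 15.8 and 18.7 at E18.5. Muscle was lower by 0.68 at E14.5 (log2 -0.68, SE 0.22, edgeR adjusted p = 0.043) and by 0.93 at E18.5 (log2 -0.93, SE 0.24, edgeR adjusted p = 0.013), of which the first was lost without E14.5 control 1 or 2 (adjusted p = 0.21 and 0.29) and with DESeq2 (adjusted p = 0.076), and the second without E18.5 control 1 (adjusted p = 0.067). Both were lost with spots over 150 µm from the other kind (edgeR adjusted p = 0.072 and 0.081). In β-cat cKO other spots reached 36.03 scaled CPM, with 522 UMIs, above all other sections (log2 1.05, SE 0.48, edgeR adjusted p = 0.40).

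The secreted inhibitors *Sfrp1* (chromosome 8:23411383-23449632) and *Sfrp2* (chromosome 3:83765750-83774314) belonged to the tissue around muscle. *Sfrp1* stood at 224, 274 and 191 scaled CPM in other spots of E14.5 controls and at 185 and 215 at E18.5, against 75.4, 86.3 and 83.0 and 67.2 and 93.0 in muscle. Muscle was 2.82-fold lower at E14.5 (log2 -1.50, SE 0.10, edgeR adjusted p = 1.2e-04) and 2.52-fold lower at E18.5 (log2 -1.34, SE 0.12, edgeR adjusted p = 9.5e-05). For *Sfrp2* the other spots held 148, 287 and 157 at E14.5 and 183 and 250.8 at E18.5, against 91.9, 113 and 82.4 and 44.7 and 80.5 in muscle. Muscle was lower at E14.5 (log2 -0.995, SE 0.13, edgeR adjusted p = 0.0014) and more so at E18.5 (log2 -1.83, SE 0.16, edgeR adjusted p = 8.9e-05). The change between stages was called for *Sfrp2* (log2 -0.84, SE 0.21, edgeR adjusted p = 0.031) but not without E14.5 control 1 or 3 or E18.5 control 1 (adjusted p = 0.064, 0.085 and 0.10) or in spots over 150 µm from the other kind (adjusted p = 0.14). In all, muscle and other spots differed in 3 of the 8 genes at E14.5 and in 5 at E18.5, where 37.4% (21.8% higher, 15.6% lower) and 53.2% (29.1% higher, 24.1% lower) of all genes were called. With TMM 0 were higher and 3 lower in muscle at E14.5 and 1 and 4 at E18.5, against 0 and 4, and 1 and 5, on raw totals, and the stage shift was upward for 1 and downward for 2, against 0 and 3. Of all 15482 genes, raw totals called 1640 higher and 4307 lower at E14.5, and 1655 and 9256 at E18.5. For the stage shift these numbers were 650 and 5242. On raw totals *Ctnnb1* was also lower in muscle at both stages (log2 -0.33 and -0.90, edgeR adjusted p = 0.019 and 1.3e-04), at E18.5 likewise without E18.5 control 1 (log2 -0.38, adjusted p = 0.021).

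In CaV1.1 KO muscle *Sfrp1* was raised at both stages, to 160.3 scaled CPM at E14.5 and 175 at E18.5, above each of the 5 controls. The log2 fold change was 0.96 at E14.5 (SE 0.16, edgeR adjusted p = 0.032) and 1.21 at E18.5 (SE 0.17, edgeR adjusted p = 0.0037), and their difference was 0.25 (SE 0.24, 95% interval -0.31 to 0.82, edgeR adjusted p = 0.55). The E14.5 call was lost without E14.5 control 1, 2 or 3 (edgeR adjusted p = 0.058, 0.062 and 0.11). *Sfrp2* was 148 and 102 in the CaV1.1 KO, above its controls at both stages (log2 0.61 and 0.78, edgeR adjusted p = 0.33 and 0.096), and was called at E18.5 on raw totals (log2 1.32, adjusted p = 0.0092) and without E18.5 control 2 (log2 1.25, adjusted p = 0.0074). β-cat cKO muscle held 118 scaled CPM of *Sfrp1* (log2 0.58, SE 0.17, edgeR adjusted p = 0.080), called by DESeq2 (adjusted p = 0.025), on raw totals (log2 0.80, adjusted p = 0.029), without a filter on low counts (adjusted p = 0.049) and without E18.5 control 2 (log2 0.82, adjusted p = 0.019). Muscle spots of the CaV1.1 KO made up 813 of 1331 spots at E18.5 against 3092 of 3460 and 2199 of 2525 in controls. Fibroblast markers there summed to 7514 raw CPM against 4942 and 6962, Schwann cell markers to 119 against 27.5 and 28.0 and mesothelium markers to 204 against 41.9 and 127. Raw CPM are not on the scale of the *Sfrp1* values, whose TMM factors were 0.960 in this KO muscle against 0.630 and 0.624. Divided by these factors, the fibroblast sum is not above either control, while the Schwann cell and mesothelium sums stay above both. At E14.5 fibroblast markers in muscle of the CaV1.1 KO summed to 6079, below the 6133 to 7356 of its controls, and mesothelium markers to 92.0 against 59.4 to 82.9. The part of these cells in the *Sfrp1* values was not tested. With stage, *Sfrp2* fell in control muscle (log2 -0.65, SE 0.23, edgeR adjusted p = 0.039), a call lost without any 1 of E14.5 controls 1, 2 and 3 (adjusted p = 0.063, 0.10 and 0.050) or E18.5 control 1 (log2 -0.29, adjusted p = 0.15), with DESeq2 (adjusted p = 0.092) and in core muscle (adjusted p = 0.086), whereas *Sfrp1* was not called with stage (log2 -0.06, SE 0.13, 95% interval -0.36 to 0.25, edgeR adjusted p = 0.73), but was called lower on raw totals (log2 -0.78, adjusted p = 0.0016) and without E18.5 control 2 (log2 -0.29, adjusted p = 0.0498).

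In the other spots of the CaV1.1 KO edgeR called 0 of the 8 genes at both stages, with 0% of all genes called at E14.5 and 0.108% at E18.5 (0.027% higher, 0.0811% lower). At an unadjusted p under 0.05 there were 1 and 4 of 8. The share of all genes at that threshold is not given, so these counts are no result about the 8 genes. DESeq2 called 0 and 2 of 8, where it called 178 and 417 of the 14799 genes tested. The 2 were *Nkd1* and *Sfrp1* at E18.5 (*Sfrp1* 357 scaled CPM against 185 and 215, log2 0.83, adjusted p = 0.027).

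Within control muscle, spots were ranked by 8 genes of the neuromuscular junction and by 4 of the myotendinous junction, and the top 15% of each ranking were taken as center and periphery. Scaled CPM of regions come from a fit of regions only and are not on the scale of the values above. *Lef1* was central at E18.5. It was 8.56 and 8.62 in the center of E18.5 controls 1 and 2, 3.70 and 4.42 in intermediate muscle and 3.14 and 1.34 in the periphery, the same order in both sections. The center was 2.12-fold above intermediate muscle (log2 1.09, SE 0.21, edgeR adjusted p = 4.6e-04) and the periphery was below it (log2 -0.78, SE 0.29, edgeR adjusted p = 0.039). The first call was lost without E18.5 control 1 (log2 0.96, adjusted p = 0.052), and the second, which rests on 30 and 10 UMIs, without E18.5 control 2 (log2 -0.24, adjusted p = 0.72), on raw totals (log2 -0.56, adjusted p = 0.12) and with DESeq2 (log2 -0.84, adjusted p = 0.15). At E14.5 the center held 6.70, 4.02 and 3.72 against 2.93, 3.75 and 4.57 in intermediate muscle, with no common order (log2 0.43, SE 0.27, edgeR adjusted p = 0.32).

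The mutants were not tested by region. In raw CPM with exact Poisson 95% intervals, which cover counting error only, *Lef1* in the center was 3.29 in β-cat cKO (2.06 to 4.98, 22 UMIs) and 6.92 in the CaV1.1 KO at E18.5 (4.03 to 11.1, 17 UMIs). The controls stood at 6.67 and 6.65. In intermediate muscle *Lef1* was 1.44 (1.06 to 1.90) and 3.63 (2.62 to 4.88), and in controls 2.59 and 3.13. In both mutants the spots taken as center thus stood above intermediate muscle, as in the controls. In the CaV1.1 KO, however, these intervals overlap. The ranking used genes of the neuromuscular junction. The paper reports that *Chrna1* and *Musk* were not confined to the muscle center in the CaV1.1 KO at E18.5. The spots taken as center in that section therefore need not lie in the middle of the muscle. β-cat cKO was below the controls in center and intermediate muscle alike. Raw CPM of these sections are not on 1 scale. The TMM factors of whole muscle were 0.960 in the CaV1.1 KO and 0.739 in β-cat cKO, against 0.630 and 0.624 in controls. In TMM-scaled CPM of whole muscle, *Lef1* of the CaV1.1 KO at E18.5 was 4.22, below the controls at 5.09 and 5.45.

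**Figure D4:**
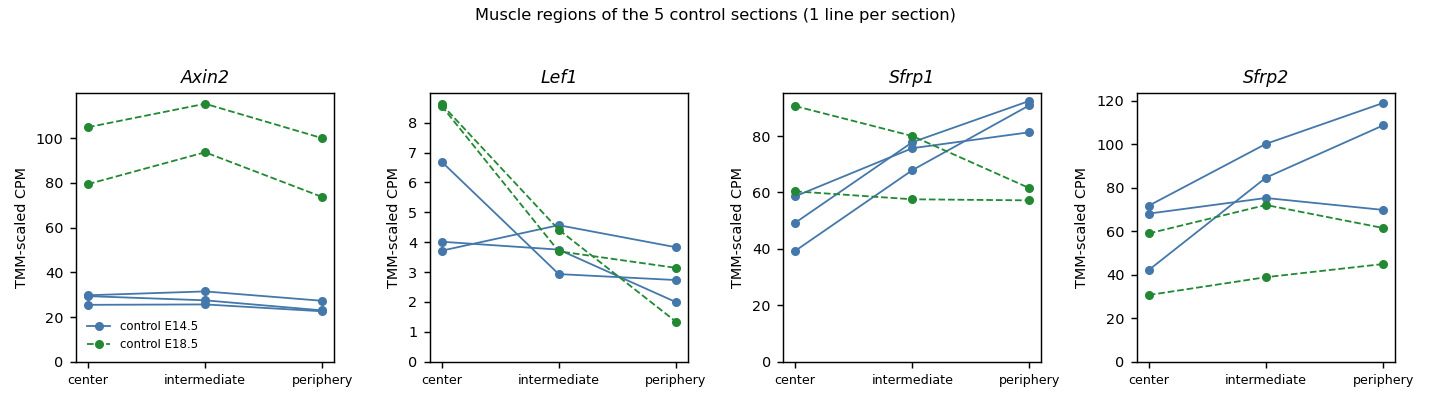
TMM-scaled CPM (y axis, from 0) in the center, intermediate part and periphery of muscle for *Axin2*, *Lef1*, *Sfrp1* and *Sfrp2*, 1 line per control section. *Lef1* is 8.56 and 8.62 in the center of the E18.5 controls and 3.14 and 1.34 in the periphery, and *Sfrp1* is higher outward at E14.5.

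*Sfrp1* and *Sfrp2* were low in the spots of the muscle center at E14.5. Both were higher outside muscle, and over the spots of controls their mean r with *Ttn* was -0.51 and -0.39. The part of connective tissue in the values of regions was not tested. *Sfrp1* was 39.3, 49.3 and 58.6 in the center, 67.9, 77.8 and 75.7 in intermediate muscle and 90.9, 92.45 and 81.3 in the periphery of controls 1, 2 and 3, rising outward in all 3. The center was lower (log2 -0.63, SE 0.09, edgeR adjusted p = 3.7e-06) and the periphery higher (log2 0.27, SE 0.08, edgeR adjusted p = 0.036), although the latter was lost without E14.5 control 1 (log2 0.18, adjusted p = 0.40) or 2 (log2 0.28, adjusted p = 0.28) and with DESeq2 (adjusted p = 0.21). *Sfrp2* was 42.2, 71.8 and 68.1 in the center against 84.7, 100.2 and 75.3 (log2 -0.57, SE 0.10, edgeR adjusted p = 2.0e-04), lost with DESeq2 (log2 -0.51, adjusted p = 0.14). At E18.5 neither was called in center or periphery, but alternatives called both. *Sfrp1* was lower in the periphery without E18.5 control 1 (log2 -0.38, edgeR adjusted p = 0.0081), with 10% of the spots (log2 -0.35, adjusted p = 3.9e-04) and without a filter on low counts (log2 -0.20, adjusted p = 0.0070), and higher in the center on raw totals (log2 0.27, adjusted p = 0.013). *Sfrp2* was lower in the center without E14.5 control 3 (log2 -0.28, edgeR adjusted p = 0.044), with 10% of the spots (log2 -0.56, adjusted p = 0.0012) and without the filter (log2 -0.33, adjusted p = 6.2e-05). In the periphery at E14.5 *Sfrp2* was called higher with 25% of the spots and without the filter (log2 0.37 and 0.20, edgeR adjusted p = 0.031 and 0.022).

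*Axin2* differed little in size between muscle regions at E18.5. There it was 79.4 and 104.8 in the center, 93.7 and 115 in intermediate muscle and 73.6 and 99.9 in the periphery. Center and periphery were slightly lower (log2 -0.19 and -0.28, SE 0.05 for both, edgeR adjusted p = 0.011 and 8.5e-05), but on raw totals both were close to 0 (log2 -0.05 and -0.06, adjusted p = 0.55 and 0.40). The center's call was also lost without E18.5 control 1 or 2 (adjusted p = 0.48 and 0.069), with DESeq2 (adjusted p = 0.37) and with 25% in place of 15% of the spots (adjusted p = 0.18), and that of the periphery without E18.5 control 1 (adjusted p = 0.062). With all sections, TMM and 15% of the spots, *Ctnnb1*, *Tcf7*, *Nkd1* and *Apcdd1* were called in no region. In the E18.5 periphery, *Ctnnb1* was called higher without E14.5 control 1 or 3 (log2 0.14 and 0.13, edgeR adjusted p = 0.032 and 0.031) and on raw totals (log2 0.30, adjusted p = 1.4e-05), *Nkd1* higher on raw totals (log2 0.33, adjusted p = 6.8e-04) and *Tcf7* lower with 10% of the spots (log2 -1.13, adjusted p = 0.037). In the center *Ctnnb1* was called higher on raw totals (log2 0.21, adjusted p = 0.0041). In the 4 tests of regions, 2 of the 8 genes were called for the center and 1 for the periphery at E14.5, and 2 each at E18.5, where 15.8%, 7.24%, 13.3% and 33.4% of all genes were called. Of all genes, 9.32%, 4.23%, 4.38% and 11.3% were called higher and 6.45%, 3%, 8.88% and 22.0% lower. On raw totals 3 were called higher and 0 lower in the center at E18.5, in place of 1 and 1, and 2 and 0 in the periphery, in place of 0 and 2. Of all 13554 genes, raw totals called 1944 higher and 321 lower in this center, and 5161 and 1076 in this periphery.

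At E18.5 *Sfrp1* and *Nkd1* had lower values beyond 300 µm from the edge of muscle than within 100 µm of it in all 4 sections, and *Axin2* of the controls had like values in both. At E14.5 *Nkd1* of control 1 was 77.1 within 100 µm and 80.4 beyond 300 µm. These are raw CPM by distance to the nearest spot of the other kind, given as a description. In E18.5 control 2, *Sfrp1* was 113 in muscle spots within 100 µm of the edge and 47.0 beyond 300 µm, and *Nkd1* was 62.2 and 23.0. In the CaV1.1 KO at E18.5 *Nkd1* was 129 at the edge and 37.5 beyond 300 µm, where the controls held 16.8 and 23.0, and *Sfrp1* was 243 and 108. Raw CPM of the KO and the controls are not on 1 scale, as the TMM factors of muscle were 0.960 against 0.630 and 0.624. Divided by them, the deep *Nkd1* value of the KO stays above both controls but close to control 2. *Axin2* was 64.1 at the edge and 64.2 beyond 300 µm in E18.5 control 1 and 77.1 and 81.1 in control 2. In β-cat cKO *Axin2* was 58.4 in other spots 200 to 300 µm from muscle and 46.0 in those within 100 µm, then 27.9 in muscle at the edge and 19.3 beyond 300 µm. Raw CPM of other spots and of muscle are not on 1 scale either, as the TMM factors of β-cat cKO were 1.131 and 0.739. Divided by them, the *Axin2* values on both sides of the edge are close to each other. *Apcdd1* in other spots of β-cat cKO was 26.3 next to muscle and 54.0 beyond 300 µm.

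**Figure D5:**
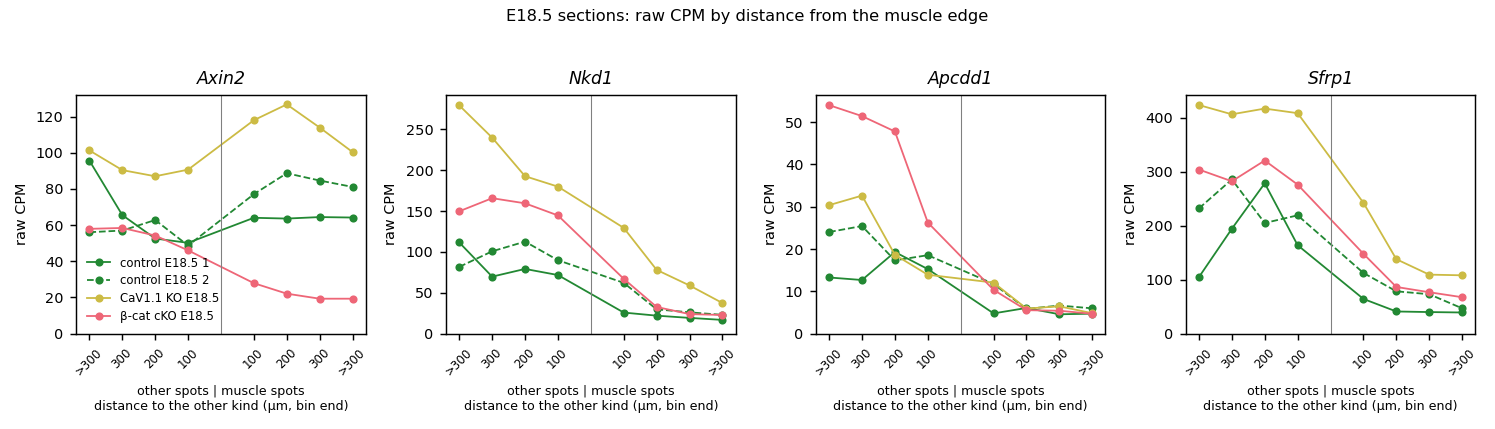
Raw CPM (y axis, from 0) in the 4 E18.5 sections by distance from the muscle edge in µm (x axis, other spots on the left and muscle spots on the right of the gray line, bins with at least 20 spots). *Axin2* of β-cat cKO is near the controls in other spots close to muscle (46.0 against 50.2 and 48.7) and far below them in deep muscle (19.3 against 64.2 and 81.1).

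Likeness across spots, the mean Pearson r within the 5 control sections over 9007 genes with enough UMIs, was higher for the secreted inhibitors than for the other genes it could be given for. *Sfrp1* was most like *Col3a1*, *Eln* and *Ptn* (r = 0.52, 0.52 and 0.49) and *Sfrp2* most like *Col3a1*, *Fbln2* and *Sulf1* (r = 0.46 for each), most of them genes of the extracellular matrix or its remodeling. *Sfrp1* and *Sfrp2* correlated at 0.38 with each other, and at -0.51 and -0.39 with *Ttn*. The highest values were 0.22 for *Ctnnb1* (with *Mfap2*, before *Bgn* and *Col1a2*) and for *Nkd1* (with *Nbl1*, before *Eln* and *S100a6*), and 0.11 for *Axin2* (with *Fgfrl1*, before *Myot*). Such weak values in sparse counts are no finding, and neither is the r of -0.01 between *Ctnnb1* and *Axin2*. Spots of a section share its library and depth, and *Lef1*, *Tcf7* and *Apcdd1* had too few UMIs for the measure.

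A wider list of 105 other genes of Wnt signaling and cadherin junctions, of which 93 were tested in muscle, was examined in the same fits. In control muscle 28 rose and 30 fell between E14.5 and E18.5, where 33.2% of all genes rose and 32.3% fell, so the list was near the background, with a median of -0.07 on the log2 scale against -0.01 over all genes. On raw totals 16 rose and 56 fell, beside 2259 and 9033 of all 14832 genes. The largest rises were those of the ligand genes *Wnt16* and *Wnt4* (log2 5.79 and 3.50, edgeR adjusted p = 1.9e-04 and 9.5e-07), the Tcf/Lef target *Sp5* (5.31, edgeR adjusted p = 1.6e-05), the secreted antagonist *Frzb* (4.73, edgeR adjusted p = 8.9e-07) and the cadherin *Cdh13* (3.25, edgeR adjusted p = 9.4e-07). The largest falls were those of *Kremen2*, a receptor for Dickkopf proteins (-4.15), the Wnt receptor gene *Fzd3* (-2.20), *Lgr5*, a receptor for R-spondins (-2.14), N-cadherin *Cdh2* (-2.10) and *Draxin* (-1.67), at edgeR adjusted p from 1.7e-06 to 6.6e-04. Of 14 inhibitors tested 8 rose and 3 fell (median 0.72), and of 17 receptors 4 rose and 9 fell (median -0.25), beside the same 33.2% and 32.3% of all genes. The list has 8 classes, and the others are not given here. Raw totals, which moved the median of all genes by -0.72 in this comparison, were not counted by class. *Jup* rose by 0.99 (SE 0.11, edgeR adjusted p = 1.25e-04).

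In β-cat cKO muscle 5 of the 93 genes were higher and 16 lower, where 3.18% and 5.62% of all genes were (median -0.09 against -0.01 over all genes). Raw totals gave 11 and 13, beside 2258 and 568 of all 14832 genes. The lower genes were led by *Frzb* (log2 -4.59, SE 0.26, edgeR adjusted p = 3.2e-04), *Wnt16* (-3.56, SE 0.86, edgeR adjusted p = 0.046), *Sp5* (-3.30, SE 0.49, edgeR adjusted p = 0.010), *Wnt11* (-3.24, SE 0.30, edgeR adjusted p = 0.0020) and *Notum*, which encodes an enzyme that inactivates Wnt ligands (-2.73, SE 0.27, edgeR adjusted p = 0.0025). *Frzb*, *Wnt16* and *Sp5* are also among the 5 genes with the largest rise with stage, a comparison that shares the E18.5 controls. In UMIs, *Frzb* had 2972 and 2682 in E18.5 control muscle and 95 in β-cat cKO, *Sp5* 258 and 297 against 23, and *Notum* 550 and 589 against 70. The higher genes were *Wnt10a*, *Kremen2*, *Fzd3*, *Cdh11* and the corepressor *Tle3* (log2 2.36, 2.23, 0.86, 0.59 and 0.52, edgeR adjusted p = 0.019, 0.0025, 0.026, 0.021 and 0.043). In other spots 3 of 94 were called, where 1.22% of all genes were, namely *Kremen2* and *Wnt10a* higher and *Frzb* lower (log2 -4.59, SE 0.66, edgeR adjusted p = 0.040), with 662 *Wnt10a* UMIs in β-cat cKO against 0 and 1 in the controls. These other spots also held less skeletal muscle marker RNA in the cKO than in either control, and its part in the *Frzb* value was not tested. Muscle minus other was lower in the cKO than in controls for 7 of 96 genes and higher for 0, where 0.639% and 0.129% of all genes were. The largest differences were those of *Wnt10a*, *Fzd10*, *Wnt11*, the ubiquitin ligase gene *Znrf3* and *Jup* (log2 -6.89, -2.94, -2.70, -1.46 and -1.43, edgeR adjusted p = 0.033, 0.016, 0.042, 0.025 and 0.020). Of these, *Wnt10a* was itself called higher in cKO muscle. *Jup* was not called in cKO muscle and stood above both controls in other spots, as given above. The other spots of the cKO also differed from those of controls in smooth muscle, cartilage and tendon markers. The part of these tissues in the differences of muscle minus other was not tested.

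In the CaV1.1 KO few genes of the list were called at E14.5 and more at E18.5. At E14.5 4 of 93 were higher, *Wnt10a*, *Kremen2*, *Rspo3* and *Cdh11* (log2 3.05, 1.63, 1.41 and 0.70, edgeR adjusted p = 0.021, 0.0082, 0.0089 and 0.022), and 2 lower, *Cdh13* and the α-catenin gene *Ctnna3* (log2 -0.99 and -0.77, edgeR adjusted p = 0.037 and 0.047). Of all genes 0.533% were higher and 1.54% lower, and the list median was 0.01 against 0.00 over all genes. At E18.5 14 were higher and 22 lower, where 10.6% and 15.2% of all genes were (median -0.08 against 0.00). Raw totals gave 42 and 8, beside 7245 and 752 of all 14832 genes. The largest values were 2.43 for *Sfrp5*, 2.16 for *Wnt10a*, 2.10 for *Rspo2*, 1.71 for *Kremen2* and 1.48 for *Lgr6*, and -4.89 for *Wnt16*, -4.83 for *Sfrp4*, -2.30 for *Wif1*, -1.30 for *Frzb* and -1.22 for *Wnt9a* (edgeR adjusted p = 9.8e-04 for *Sfrp4* and 0.0030 to 0.048 for the others). The effect of the KO differed between stages in 9 genes, 2 upward and 7 downward, where 2.22% and 4.18% of all genes were called. Raw totals gave 24 and 2, beside 4407 and 248 of all 14832 genes. The 9 genes include *Tle2* (1.49), *Wnt5b* (0.73), *Sfrp4* (-3.42), *Wif1* (-3.11), *Fzd7* (-0.96), *Gsk3b* (-0.78) and *Csnk1e* (-0.75), at edgeR adjusted p from 0.025 to 0.048. Only 4 of the 9 kept their call on raw totals, and 0 turned in sign. With the replicate block this test called 0 of all genes. In other spots edgeR called 0 of 94 at either stage.

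Between the compartments of controls, 18 of 96 genes were higher and 33 lower in muscle at E14.5, and 29 and 38 at E18.5, or 11 and 49, and 12 and 64, on raw totals. Of all genes 21.8% were higher and 15.6% lower at E14.5, and 29.1% and 24.1% at E18.5. On raw totals 1640 and 4307 of all 15482 genes were so called at E14.5, and 1655 and 9256 at E18.5. *Fzd10* led the higher genes at both stages (log2 2.19 and 2.89, edgeR adjusted p = 1.4e-04 and 3.7e-05). At E14.5 *Fzd9* (1.57), *Draxin* (1.42), *Ctnna3* (1.40) and *Kremen1* (1.33) followed, and at E18.5 *Frzb* (2.29), *Wnt4* (2.05), *Wnt16* (1.92) and *Sp5* (1.86). The lowest were *Wnt10b* (-2.97), *Rnf43* (-2.48), *Dkk3* (-2.25), *Wnt16* (-2.18) and *Ctnna2* (-2.17) at E14.5, and *Wnt9b* (-4.39), *Rnf43* (-3.24), *Wnt10b* (-3.14), *Wnt2* (-3.08) and *Lgr6* (-2.98) at E18.5. The stage shift of muscle minus other was upward for 13 genes and downward for 11, where 12.3% and 6.36% of all genes were called. Raw totals gave 9 and 38, beside 650 and 5242 of all 15482 genes. The shift was led by *Sp5* (4.31), *Wnt16* (4.10), *Wnt4* (3.37), *Frzb* (2.80) and *Wnt11* (2.07), and by *Wif1* (-3.12), *Lgr6* (-2.36), *Wnt2* (-2.03), *Nkd2* (-1.54) and *Fzd1* (-0.79). In other spots alone 20 of 94 rose with stage and 14 fell, where 16.6% and 14% of all genes did. Raw totals gave 17 and 24 of the list, beside 1663 and 3971 of all 14799 genes. The rises were led by *Sfrp5* (3.44), *Wif1* (3.12), *Cdh13* (3.04), *Nkd2* (2.92) and *Dkk3* (2.68), with *Kremen2* (-4.02), *Fzd3* (-1.43), *Rspo3* (-1.37) and *Cdh2* (-1.35) among those that fell. *Jup* was higher in muscle at E18.5 (0.32) but lower on raw totals (-0.39, adjusted p = 0.0039), and rose with stage in other spots (0.69). Every gene named here had an edgeR adjusted p below 0.05.

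Across muscle regions, *Fzd10* marked the center at both stages (log2 1.31 and 1.48 over intermediate muscle, edgeR adjusted p = 2.2e-10 and 4.6e-15) as *Lef1* did at E18.5. Of 88 genes tested, 10 were higher and 13 lower in the center at E14.5, and 11 and 8 at E18.5 (7 and 18, and 20 and 2, on raw totals). Of all genes 9.32% were higher and 6.45% lower in the center at E14.5, and 4.38% and 8.88% at E18.5. On raw totals 866 and 1455 of all 13554 genes were so called at E14.5, and 1944 and 321 at E18.5. Beside *Fzd10* the higher genes were led by *Draxin* (0.77), *Notum* (0.62), *Kremen1* (0.51) and *Cdh13* (0.49) at E14.5, and by *Sfrp5* (2.08), *Wnt16* (1.11), the cell cycle gene *Ccnd1* (0.97) and *Sostdc1* (0.64) at E18.5. The lower genes were led by *Dkk2* (-0.99), *Cdh3* (-0.96), *Wnt5a* (-0.79), *Fgf18* (-0.75) and *Rspo3* (-0.60) at E14.5, and by *Fgf18* (-0.66), *Frzb* (-0.55), *Sfrp4* (-0.49), *Wnt4* (-0.37) and *Ctnna3* (-0.36) at E18.5. On raw totals 579 of all 13554 genes were higher and 411 lower in the periphery at E14.5, and 5161 and 1076 at E18.5. Of the list, 14 were higher and 5 lower in the periphery at E14.5, and 20 and 27 at E18.5 (14 and 5, and 42 and 11, on raw totals). With TMM 4.23% and 3% of all genes were higher and lower there at E14.5 and 11.3% and 22.0% at E18.5. The list genes higher in the periphery were led by *Wif1* at both stages (1.63 and 2.19), then by *Ctnna3* (1.19), *Dkk2* (0.81), *Wnt5a* (0.75) and *Fgf18* (0.73) at E14.5 and by *Lgr5* (2.06), *Lgr6* (1.64), *Nkd2* (1.46) and *Dkk3* (1.33) at E18.5. Those lower were led by *Fzd10* (-0.85), *Cdh13* (-0.53), *Cdh5* (-0.40), *Kremen1* (-0.32) and *Csnk1a1* (-0.14) at E14.5, and by *Wnt16* (-1.56), *Sp5* (-1.45), *Frzb* (-1.18), *Notum* (-1.13) and *Wnt11* (-0.83) at E18.5. Each had an edgeR adjusted p at or below 0.050, and *Jup* was not called in any region.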

How the data were processed

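Visium libraries from formalin-fixed, paraffin-embedded sections of 8 diaphragms were aligned to mm10 and counted by the authors with Space Ranger (2.0.0 or 2.0.1 per the file headers), and the deposited matrices hold raw UMI counts per probe-targeted gene and spot. Diaphragms were embedded flat and cut en face. Spots with at least 1000 UMIs were kept, and muscle spots were those above Otsu's threshold of the mean of 9 muscle genes. No member defined a region. UMIs were summed per section and compartment and fitted with edgeR 4.0.16 in R 4.3.3 (filterByExpr, TMM, glmQLFit and glmQLFTest, Benjamini-Hochberg adjusted p below 0.05) in 4 fits: muscle, other spots, both with section as block, and muscle regions of controls with section as block. For a mutant with 1 section, the spread was taken from the control sections. Alternatives were raw totals, DESeq2's size factors, DESeq2 1.42.0, no filter on low counts, spots over 150 µm from the other kind, region shares of 10% and 25%, the block, and leaving out each control section in turn. Fitting E18.5 sections only was chosen after seeing the data.

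The 8 genes, the list of other pathway genes and the marker lists were chosen with earlier results of these data known. All 8 genes were named in every comparison. Of the other pathway genes, up to 5 called genes per direction were named by size of fold change, with *Jup* always added. Likeness used genes with at least 200 UMIs in each of the 5 control sections. On simulated counts (14394 genes) the β-cat cKO comparison in muscle recovered 68% of genes changed by log2 1 and 100% of those changed by log2 2. For its contrast of muscle with other spots these shares were 17% and 91%. The changed genes were drawn above a minimum count and all genes had the same dispersion, so the shares do not describe the sparsest genes. Same-numbered controls of the stages deviated oppositely (r = -0.35 and -0.34), which gives no sign that replicate numbers pair them. With 2 sections at E18.5, deviations from their mean mirror each other, so these are not 2 separate checks. Muscle and other spots of a section deviated together (r = 0.27 to 0.66). Some genes that the rules would name are not reported here.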

Additional observations from a re-analysis of the deposited data

Results flagged for a closer look

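The effect of the CaV1.1 KO in muscle differed between the stages, by the test of the difference itself, for *Ctnnb1* (-0.91 on the log2 scale, E18.5 minus E14.5) and *Nkd1* (1.28). Each KO effect rests on 1 mutant section.

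The contrast of muscle with other spots differed between E14.5 and E18.5 controls for *Axin2* (log2 1.02), *Nkd1* (-1.38) and *Sfrp2* (-0.84), and between β-cat cKO and E18.5 controls for *Axin2* (-1.77). No group had enough sections to test for a section far from the others.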

How the results depend on the processing

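Of 136 results of the 8 genes, 32 were called, and 14 of these were called under every setting and 31 kept their sign. The exception, *Ctnnb1* in the CaV1.1 KO at E18.5, was 0.070 on raw totals, and its uncalled stage value in muscle turned to -0.54. There was 1 section per mutant and 2 or 3 per control group, and muscle values of *Tcf7* and *Lef1* rest on 15 to 125 and 66 to 243 UMIs per section.

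Numbers of the 8 genes called moved as follows, and the cause was not tested. The KO effect between stages (2) gave 1 on raw totals and 1 in core muscle. With E18.5 sections only, β-cat cKO muscle (2) gave 1. DESeq2 gave 2 in other spots of the CaV1.1 KO at E18.5 (0), 1 and 0 in center and periphery at E14.5 (2 and 1), and 1 and 1 at E18.5 (2 and 2). In the same order it called 417, 1456 and 561, and 748 and 2606 of all genes. Spots over 150 µm from the other kind gave 0 for the β-cat cKO contrast of muscle with other spots (1). Without a filter the periphery at E14.5 gave 2. Region shares of 10% gave 4 in the periphery at E18.5, and shares of 25% gave 2 in the periphery at E14.5 and 1 in the center at E18.5.

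With the replicate block, CaV1.1 KO muscle at E14.5 gave 0 (1), β-cat cKO muscle 1 (2) and the KO effect between stages 0 (2), and *Sfrp2* in the CaV1.1 KO at E18.5 was called (log2 1.1). Without the section block every region comparison gave 0.

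Leaving out 1 control section gave 3 to 5 genes for stage in muscle, 0 to 1 and 2 to 4 for the CaV1.1 KO at E14.5 and E18.5, 1 to 3 for β-cat cKO, 0 to 2 for the KO effect between stages, 2 to 3 for muscle against other spots at E14.5 and for its stage difference, 0 to 1 for the β-cat cKO contrast of muscle with other spots, and 0 to 1, 0 to 3 and 1 to 3 for periphery at E14.5 and center and periphery at E18.5.

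Over all genes, counts called ran from 0 (replicate block) to 731 (DESeq2) around 308 for the CaV1.1 KO at E14.5, from 2525 (core muscle) to 7997 (raw totals) around 3819 at E18.5, from 81 (replicate block) to 2826 (raw totals) around 1305 for β-cat cKO, and from 0 to 4655 around 949 for the KO effect between stages. In other spots they ran from 2340 to 5634 around 4522 for stage, from 0 to 178 around 0 and from 0 to 417 around 16 for the CaV1.1 KO at E14.5 and E18.5, and from 0 to 580 around 181 for β-cat cKO. For muscle against other spots they ran from 3110 to 6056 around 5790 at E14.5, from 1441 to 5892 around 2882 for the stage difference and from 23 to 292 around 119 for β-cat cKO. Across regions the lowest were 188, 55, 148 and 1089 around 2137, 981, 1798 and 4523, in the order center and periphery at E14.5 and at E18.5.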
